A study of Arabidopsis thaliana with 8 samples.

Results

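The genes described here gave a bright spot on an Arabidopsis array with both leaf and root RNA, at a similar level in each. The study compared leaves with root material of wild-type Arabidopsis thaliana plants of ecotype Columbia 0, with 4 arrays of total RNA per tissue. No mutation, treatment or plant age is given in the labels, and nothing says whether the 4 arrays of a tissue came from separate plants, so their spread may be technical. Each array holds 1 intensity for each of 3439 probes, on a relative linear scale from 0 to a ceiling at 100 in the deposited units. A probe was a member when its leaf mean and its root mean were both 1 or more, its root mean divided by its leaf mean lay between 0.5 and 2, and at least 1 gene was annotated to it. This gave 53 of the 3439 probes, drawn from 107 annotated probes that were bright in both tissues. Of the other 54, 20 had a ratio above 2 and 34 a ratio below 0.5. A further 53 probes met the same limits of brightness and ratio but had no gene name, and they are not members.

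A gene read at a like level in leaf and root is often one whose product most plant cells need, such as a histone, an RNA processing factor, an enzyme of sugar metabolism or a protease. Root cells carry plastids that do not photosynthesise but still make fatty acids and isoprenoids. Several nuclear genes for plastid proteins can therefore be transcribed in both organs.

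The members pointed to 95 genes. A single gene was annotated to 21 of them, 2 genes to 22 and 3 genes to 10, mostly members of 1 family, and the signal of a shared probe cannot be assigned to 1 of its genes. The brightness of a spot also depends on the probe itself, so the order of the spots is not an order of transcript amounts. In RNA of whole organs, fewer cells of a type and less RNA per cell cannot be told apart. The members were chosen by their leaf and root means and the ratio of these, so these values are descriptions and were not tested. As a check of the tissues, 5 of 8 leaf marker genes had a probe. The antenna gene LHB1B2 had a leaf mean of 22.5 ± 2.53 and a root mean of 0.481 ± 0.174 (SD, n = 4). PRK, PSAN and PSBY were lower in root as well, at ratios of 0.0404, 0.0745 and 0.316, and SBPASE was listed at 0 on all arrays of both tissues. None of the 7 root marker genes had a probe (0 of 7), so root identity was not checked by markers. Summed intensity was 3021 to 3426 per leaf array and 2868 to 3505 per root array.

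Root over leaf ratios of the members ran from 0.505 to 1.68 with a median of 0.940. The mean was higher in root for 25 members and in leaf for 27, and 1 member was at the ceiling throughout. Over the 2990 probes with a signal in both tissues the median ratio was 1.64, and over all 234 probes bright in both it was 0.847. In 31 members the 4 leaf and 4 root values overlapped. In the other 22, or 41.5%, they did not, with root above leaf in 9 and leaf above root in 13. Over the 3307 probes with any signal, 51.3% did not overlap, 35.7% with root above and 15.6% with leaf above. The rule used this contrast, so the members' share is given without a reading. The split also depended on the scaling: with each array scaled to its median positive value, leaf was above root without overlap in 32 members and root above leaf in 0, beside 47.1% of all probes in either direction. With quantile normalisation 10 had root above and 11 leaf above, beside 44.2% of all probes. These counts leave out the member at the ceiling on all arrays, whose values after scaling differ only through the scaling. Shares of all probes in each direction were not computed after scaling, so the members' split there is given without a reading.

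**Figure D1:**
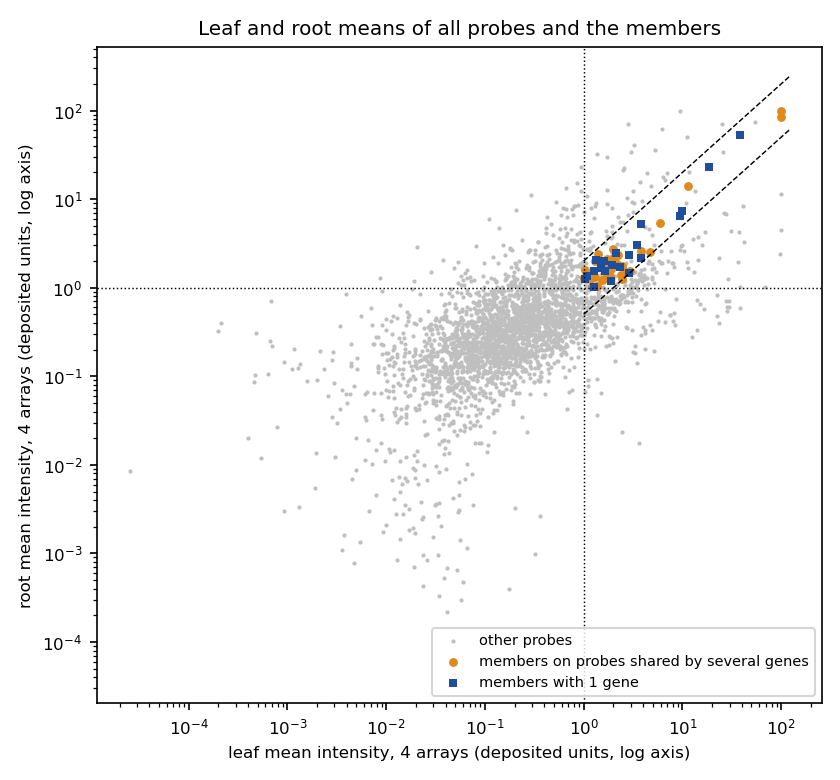
Leaf mean against root mean of the deposited intensity (4 arrays each, both axes logarithmic) for all probes with a signal in both tissues. Dotted lines mark the minimum of 1 and dashed lines the ratios of 0.5 and 2. The 53 members lie in the wedge between the dashed lines, as do 53 probes without a gene name. Most members lie near its lower end, with 17 at 2 or more in both tissues.

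Whether a level counts as similar depends on how the arrays are scaled to each other. The median probe of an array, with values of 0 included, read 0.150 to 0.176 in leaf and 0.258 to 0.317 in root. The median positive value, which the scaling used, was 0.253 to 0.263 in leaf and 0.315 to 0.409 in root. When each array was scaled to its median positive value, the median ratio of the members fell to 0.674, 49 of the 53 were brighter in leaf, and 40 of the 53 still met the rule. Of the members, 21 then changed the tissue with the higher mean, among them 6 of the 9 with root above leaf as deposited, so each account below of root above leaf holds for the deposited scale. With quantile normalisation the median ratio was 1.01, with 29 brighter in root and 24 in leaf, and 50 of the 53 still met the rule. With a common mean the ratio was 0.954 and 52 met it. The counts of brighter members after scaling include the member at the ceiling throughout, whose ratio differs only through the scaling. With quantile normalisation its ratio of 1.01 was itself the median.

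**Figure D2:**
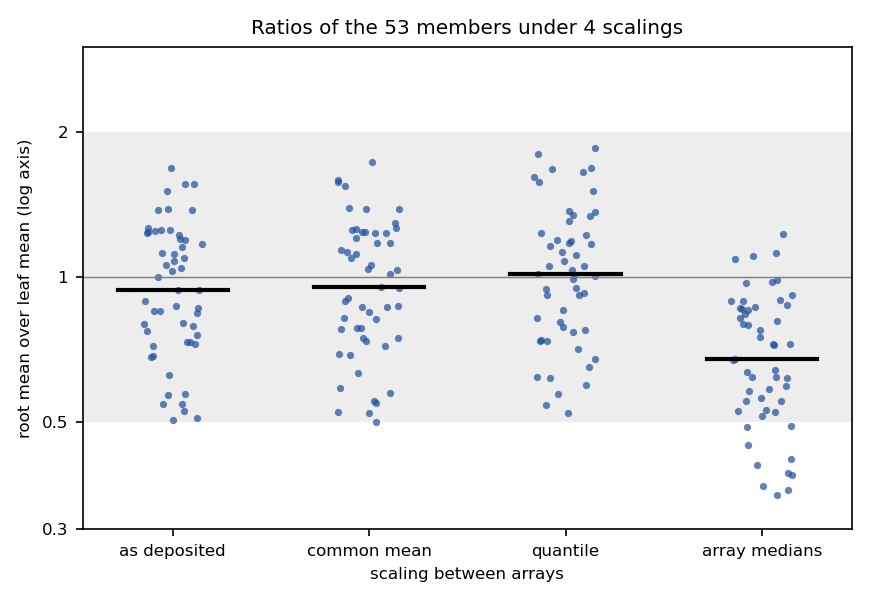
Root mean over leaf mean (logarithmic axis) of the 53 members under 4 scalings of the arrays, with 1 point per member and a bar at the median. The shaded band spans 0.5 to 2. The medians are 0.940 as deposited, 0.954 with a common mean, 1.01 with quantile normalisation and 0.674 with scaling to array medians, where points fall below the band.

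Both members at the intensity ceiling were shared between genes. Probe 1431 was at the ceiling on all 8 arrays, so neither its levels nor their ratio is known. It is annotated to CSLC12, a cellulose synthase-like protein of the family that makes the glucan backbone of xyloglucan, and to AT4G07950 and AT4G07940, which lie next to it on the chromosome with no coding gene between neighbours. Probe 4360, annotated to AT4G22850 and AT4G12000 of the SNARE-associated Golgi protein family, reached the ceiling on every leaf array. Its root values were 84.9, 80.7, 86.7 and 87.9, in the order of replicates 1 to 4 used throughout. Its leaf level is a lower limit, so its ratio of 0.850 is an upper limit and every root array lay below the leaf arrays. These 2 probes carried 6.22% ± 0.412 of the summed intensity in leaf and 5.85% ± 0.717 in root, and the other 51 members carried 5.70% ± 0.180 and 5.95% ± 0.424 (SD, n = 4). Further probes for their genes were dim, though levels of different probes are not comparable. For CSLC12, AT4G07950 and AT4G07940, with AT4G07990, 1 read 0.0872 in leaf and 0.708 in root on average. Another, of CSLC12 and other CSLC genes, had means of 0.0957 and 0.387. That of AT4G22850 and AT4G12000, with AT1G12450, had 0.0879 and 0.635.

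The brightest member with 1 gene was AT4G22830, which encodes a YCF49-like protein. It read 43.4, 41.5, 33.1 and 36.8 in leaf and 64.5, 63.0, 37.3 and 48.4 in root, a root over leaf ratio of 1.38 (0.972 with scaling to array medians). The tissues overlapped, because root replicate 3 was below leaf replicates 1 and 2. AT4G22830 lies with 1 coding gene between it and AT4G22850 of the probe at the ceiling in leaf.

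Next came AT4G17070, annotated as a peptidyl-prolyl isomerase, an enzyme class that helps proteins fold. It read 23.7, 22.7, 10.1 and 17.4 in leaf and 29.98, 29.6, 10.6 and 21.1 in root. Replicate 3 was the lowest in both tissues, and the tissues overlapped at a ratio of 1.23. A probe shared by AT5G03560 and AT4G38150, helical-repeat proteins of the pentatricopeptide and tetratricopeptide type, read 13.2, 13.5, 9.70 and 9.13 in leaf and 15.5, 17.1, 11.7 and 11.4 in root. Here too replicates 1 and 2 were above 3 and 4 in each tissue, and the tissues overlapped. In these 5 brightest members at least 1 annotated gene lay on chromosome 4, as judged from locus names. The same held for 6 of the 10 brightest and for 39.6% of all members, against 25.8% of all annotated probes.

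Chromatin was represented by AT1G13370, a histone H3 gene, whose product packs DNA into nucleosomes. It read 8.35, 8.75, 10.3 and 10.7 in leaf and 6.92, 7.12, 5.79 and 6.26 in root. All leaf arrays were above all root arrays, with means of 9.51 ± 1.13 and 6.52 ± 0.610 (SD, n = 4) and a ratio of 0.686. The ratio was 0.854 with quantile normalisation and 0.491 with scaling to array medians.

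RNA binding and processing had 3 members, 1 with root above leaf, 1 with leaf above root and 1 with overlap. AT2G37510, an RNA-binding protein with an RNA recognition motif, read 1.41, 1.47, 1.20 and 1.23 in leaf and 2.08, 2.27, 2.02 and 1.94 in root. Its ratio of 1.56 was among the highest of the members, and root was above leaf on every array. AT5G11010, a polynucleotide kinase-like protein of the family that acts in RNA cleavage, lay the other way. It read 2.73, 2.36, 1.99 and 2.23 in leaf and 1.80, 1.73, 1.59 and 1.70 in root. The probe of AT1G11520 and AT4G21660, relatives of a spliceosome-associated protein, read 3.49, 3.90, 1.26 and 1.07 in leaf and 1.86, 1.14, 0.995 and 0.961 in root. Its ratio of 0.510 rested on leaf replicates 1 and 2, and the leaf values of replicates 3 and 4 fell within the root range.

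Among proteins of organelle gene expression, AT1G61990, of the mitochondrial transcription termination factor family, read 1.12, 1.28, 1.42 and 1.31 in leaf and 1.18, 0.636, 1.14 and 1.14 in root. Root replicate 2 stood apart, and the other root arrays overlapped with leaf. The 1 transcription factor member was the probe of URO (UPRIGHT ROSETTE) and AT5G43540, C2H2 zinc finger proteins. It read 2.69, 2.68, 1.70 and 1.91 in leaf and 3.24, 3.12, 1.52 and 1.49 in root. With means of 2.24 ± 0.513 and 2.34 ± 0.964, its ratio of 1.04 was close to 1, while root replicates 1 and 2 lay above all leaf arrays and root replicates 3 and 4 below them.

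Of the members, 6 probes for plastid proteins were grouped here after their values were seen. They are not a full list, as other members such as AT5G14910 also encode plastid proteins. In 2 of these root was above leaf, in 2 leaf was above root, and 2 overlapped, with ratios from 0.683 to 1.38. AT1G74470 encodes geranylgeranyl reductase, which makes the phytyl chain of chlorophyll and tocopherol. It read 3.85, 4.11, 3.80 and 3.54 in leaf and 5.86, 5.61, 5.02 and 4.56 in root, without overlap. Its ratio of 1.38 became 0.984 when arrays were scaled to their medians, so root was not brighter under that scaling. The probe of AT2G35260 and AT4G17840, thylakoid proteins that balance chlorophyll synthesis and breakdown, read 4.13, 4.10, 3.45 and 3.41 in leaf and 2.77, 2.77, 2.29 and 2.47 in root. Here every leaf array was above every root array, the reverse of the reductase.

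FAX3 (AT2G38550), of the FAX family of plastid envelope proteins that take part in fatty acid export, read 2.68, 2.28, 1.61 and 1.91 in leaf and 3.05, 3.10, 1.92 and 1.86 in root. The tissues overlapped, and in each replicates 1 and 2 were the higher. PSB27 (AT1G03600), an assembly factor of photosystem II, read 1.44, 1.55, 0.973 and 0.353 in leaf and 1.76, 2.05, 1.01 and 0.549 in root. Replicate 4 was the lowest and replicate 2 the highest in both tissues, and the tissues overlapped at a ratio of 1.24. PSB27 met the minimum of 1 through replicates 1 and 2 in leaf, and replicates 3 and 4 of leaf lay below it.

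AT3G44020, annotated as a protein of the thylakoid lumen, was one of the dimmest members. It read 1.09, 0.996, 1.06 and 1.03 in leaf and 1.24, 1.41, 1.18 and 1.14 in root. Root was above leaf without overlap at a ratio of 1.19, but the ratio was 0.854 with scaling to array medians. The probe of AT3G61320 and AT2G45870, bestrophin-like chloride channels of the thylakoid, read 1.81, 1.87, 1.90 and 1.80 in leaf and 1.16, 1.58, 1.49 and 1.14 in root, with every leaf array the higher. AT5G14910, a chloroplast protein with a heavy metal-associated domain, read 1.497, 1.45, 0.983 and 1.18 in leaf and 1.45, 1.41, 1.67 and 1.61 in root. Its tissues overlapped.

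**Figure D3:**
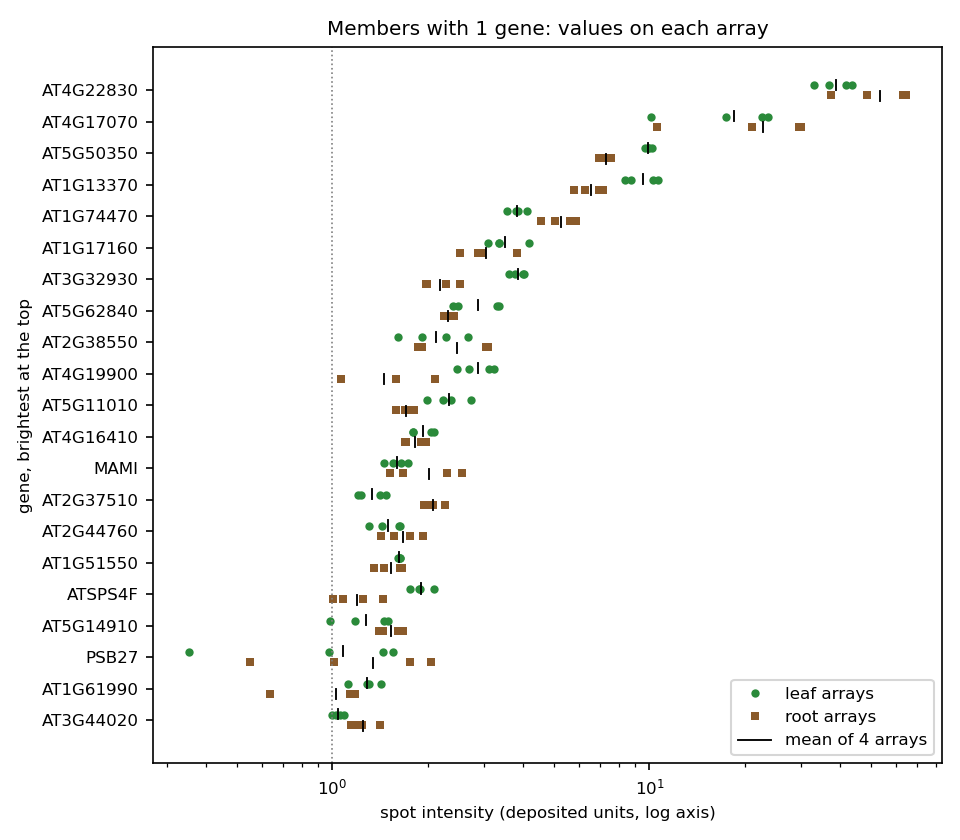
Deposited intensity on each of the 8 arrays (logarithmic axis) for the 21 members with 1 gene, leaf as circles and root as squares, with a black tick at each mean of 4 arrays. The dotted line marks the minimum of 1. In 12 of the 21 the tissues overlap, in 6 leaf is above root and in 3 root is above leaf, and PSB27 and AT4G17070 show wide spreads in both tissues.

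Sugar metabolism gave 3 members, each with 1 gene and, as deposited, a higher mean in leaf, and 1 of the 3 did not overlap between tissues. That gene, ATSPS4F, encodes sucrose-phosphate synthase, which makes the precursor of sucrose. It read 1.89, 2.09, 1.88 and 1.75 in leaf and 1.44, 1.25, 1.08 and 1.004 in root, a ratio of 0.627. AT1G17160, a ribokinase that phosphorylates ribose, read 3.34, 3.10, 3.36 and 4.18 in leaf and 2.52, 2.89, 2.96 and 3.81 in root. In each tissue replicate 4 was the highest, and the tissues overlapped at a ratio of 0.872 (1.06 with quantile normalisation). AT5G62840, of the phosphoglycerate mutase family, read 3.31, 3.36, 2.48 and 2.40 in leaf and 2.26, 2.32, 2.41 and 2.27 in root. The leaf arrays split into a higher and a lower pair, while the root arrays lay close together at 2.32 ± 0.0725 (SD, n = 4).

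In amino acid metabolism the probe of AT4G20930, 3-hydroxyisobutyrate dehydrogenase of valine breakdown, and AT1G18270, a related fusion with an aldolase domain, had the highest ratio of all members, 1.68. It read 1.52, 1.36, 1.29 and 1.47 in leaf and 2.05, 2.18, 2.63 and 2.62 in root, without overlap. The probe of GLX2-4 and GLX2-5, glyoxalase II enzymes that release glutathione in the removal of methylglyoxal, lay near the other end at 0.545. It read 4.91, 4.78, 4.67 and 4.38 in leaf and 2.92, 2.83, 2.18 and 2.28 in root, again without overlap.

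Proteases and the F-box proteins that pick targets for ubiquitin gave 4 members in the groups used, of which 3 overlapped and 1 had leaf above root. AT1G51550, an F-box protein with kelch repeats, read 1.64, 1.61, 1.62 and 1.63 in leaf and 1.63, 1.66, 1.36 and 1.45 in root. Its leaf SD of 0.0111 was small, and with a ratio of 0.938 the root arrays spanned the leaf values. The probe of AT3G62430 and AT3G54160, F-box relatives, read 1.61, 1.34, 1.18 and 1.29 in leaf and 1.12, 1.09, 1.01 and 0.970 in root, where all leaf arrays were the higher. The aspartyl protease probe of AT5G45120, AT4G16563 and AT3G52500 read 2.01, 1.93, 2.01 and 2.21 in leaf and 2.28, 3.78, 1.31 and 1.27 in root. Leaf was steady and root was not, so the ratio of 1.06 averages root arrays on both sides of leaf. The probe of AT4G36195 and AT4G36190, neighbouring genes for serine carboxypeptidases of the S28 family, read 1.67, 1.39, 1.51 and 1.55 in leaf and 1.57, 1.52, 0.881 and 0.870 in root. Root replicates 3 and 4 lay below all other arrays. A brighter probe, shared by AT4G22030, a probable F-box protein, and AT4G04480, read 6.25, 6.32, 5.72 and 5.54 in leaf and 5.67, 5.54, 5.08 and 4.98 in root, an overlap of the tissues at a ratio of 0.893.

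Among enzymes that add sugars, AT4G19900 of the alpha 1,4-glycosyltransferase family had the lowest ratio of all members, 0.505. It read 2.48, 3.11, 3.24 and 2.69 in leaf and 1.58, 2.11, 1.06 and 1.06 in root, without overlap. The probe of AT5G63390, AT3G07900 and AT2G44500, of the O-fucosyltransferase family, read 2.12, 1.74, 3.13 and 2.79 in leaf and 1.99, 1.68, 1.76 and 1.60 in root, where leaf replicates 3 and 4 stood above the other arrays.

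Signalling and membrane proteins were mixed as well. A probe shared by the protein kinase genes AT5G51770, AT4G25390 and AT2G45590 read 2.71, 2.34, 1.77 and 1.89 in leaf and 1.88, 2.54, 1.43 and 1.48 in root, with overlap. MAMI (AT5G54110), a membrane-associated protein named for its induction by mannitol, read 1.45, 1.73, 1.55 and 1.65 in leaf and 2.30, 2.57, 1.52 and 1.67 in root. Root replicates 1 and 2 were above all leaf arrays, and root replicates 3 and 4 were within the leaf range. The probe of LSMT-L, AT1G01920 and AT3G56570, SET-domain proteins of the family named after the Rubisco large subunit methyltransferase, read 3.01, 2.91, 2.52 and 2.66 in leaf and 1.61, 1.66, 1.42 and 1.39 in root. All its leaf arrays were above its root arrays, at a ratio of 0.546. The leucine-rich repeat protein probe of AT1G78230, AT5G22320 and AT4G03260 had a similar ratio of 0.527, but root replicate 2, at 2.86 against 0.984, 1.14 and 1.21 on the other root arrays, reached into the leaf range of 2.46 to 3.42.

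No role is given for 15 members, 4 of them with 1 gene. AT5G50350 was the brightest of these and one of the steadiest members, at 9.90, 9.70, 9.95 and 10.1 in leaf and 7.58, 6.95, 7.32 and 7.30 in root. The tissues were separated by more than the SDs of 0.183 and 0.258. Its ratio of 0.734 became 0.943 with quantile normalisation and 0.531 with scaling to array medians. AT3G32930 read 3.99, 4.02, 3.61 and 3.78 in leaf and 2.29, 2.52, 1.97 and 1.99 in root, also without overlap. AT4G16410 and AT2G44760 overlapped between tissues, at ratios of 0.940 and 1.12, with all 16 values between 1.30 and 2.10. The 11 shared probes without a role had ratios from 0.572 to 1.56. The brightest of these, shared by AT1G61200 and AT1G20280, read 2.30, 2.06, 1.84 and 1.66 in leaf and 3.63, 3.001, 2.21 and 2.03 in root, with overlap. That of AT4G22400, AT4G18320 and AT4G18310 had root above leaf without overlap, at 2.14 ± 0.301 against 1.71 ± 0.0817 (SD, n = 4), but a ratio of 0.890 with scaling to array medians.

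Of 25 genes often used as references for expression, 3 had a probe and 0 were members, where members are 3.39% of all annotated probes. AT2G28390 had means of 0.202 ± 0.122 in leaf and 0.455 ± 0.0921 in root (SD, n = 4), below the minimum of 1. The probe that AT5G15710 shares with UFO had means of 1.98 ± 0.300 and 0.235 ± 0.130, a ratio of 0.119. The 2 probes that AT1G58050 shares with AT1G58055 and AT1G58060 had ratios of 1.23 and 0.277, and their means were below 1.

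Further probes for the same genes were not used by the rule. Of the members, 17 shared a gene with 18 further probes, and 17 of these 18, or 94.4%, had means below 1 in both tissues, against 79.6% of all annotated probes. Levels of different probes are not comparable, but a root over leaf ratio is measured within a probe. Among the 15 further probes with a signal in both tissues, the ratio lay between 0.5 and 2 in 5, above 2 in 7 and below 0.5 in 3. The 5 are 33.3%, beside 36.6% of the 1310 annotated probes outside the members with a signal in both tissues. The further probe with the same annotation as the F-box probe of AT4G22030 and AT4G04480 had a ratio of 0.266, where the member had 0.893. The further probe with the annotation of AT1G04930 and AT2G32840 had 0.799, where the member had 0.757. AT4G31530, an NAD(P)-binding protein gene that shares a member probe with AT5G02240 and AT2G37660, has a probe of its own that was bright in both tissues. That probe read 31.3 ± 0.766 in leaf and 4.39 ± 0.363 in root, a ratio of 0.140, where the shared probe had a ratio of 1.098 (these last 2 comparisons were picked with their values known).

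**Figure D4:**
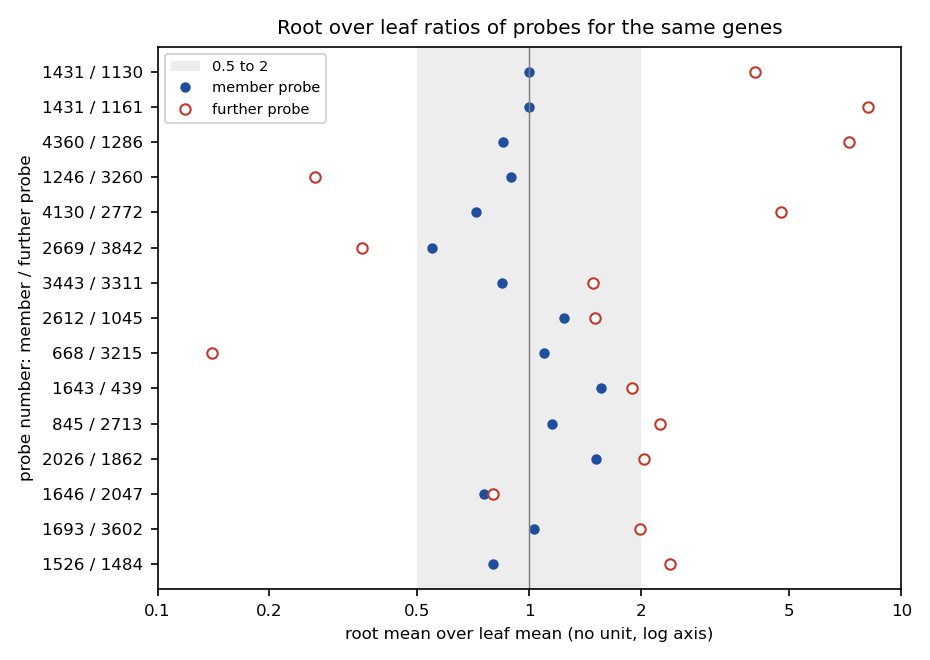
Root mean over leaf mean (logarithmic axis) of the member probe (filled) and of a further probe for at least 1 of the same genes (open), for the 15 further probes with a signal in both tissues. Rows are labelled by probe number, and the shaded band spans 0.5 to 2. Of the open circles 5 lie in the band, 7 to its right and 3 to its left. The ratio of probe 1431 is that of values at the ceiling.

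The spread between arrays of a tissue was not part of the rule either. The coefficient of variation is the SD as a percentage of the mean over 4 arrays. Over the 51 members off the ceiling it had a median of 9.89% in leaf and 13.3% in root. Over the other probes off the ceiling with a mean of 1 or more in the tissue it was 12.3% in leaf (389 probes) and 17.6% in root (484 probes). Over the 53 probes without a gene name within the same limits (any at the ceiling included) it was 11.96% in leaf and 14.6% in root. Of the 51 members it was under 10% for 27 in leaf and 21 in root, and over 30% for 3 and 8. No array of any member was listed at 0, and in 41 members all 8 values were 1 or more.

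Part of the spread lay between replicates 1 and 2 on one side and 3 and 4 on the other, a division that the labels do not explain and that was noticed in the values. Among the 51 members off the ceiling, the median fold difference was 1.09 between leaf replicates 1 and 2, 1.07 between leaf 3 and 4, and 1.13 between the means of these pairs. In root these were 1.099, 1.04 and 1.21. These folds ignore direction. With direction kept, the median ratio of replicates 1 and 2 to 3 and 4 was 1.07 in leaf and 1.14 in root. The summed intensity of whole arrays was 1.12 times as high in replicates 1 and 2 in leaf and 1.21 times in root. After arrays were scaled to a common mean, the members' median folds without direction were 1.12 in leaf and 1.23 in root. The mean of replicates 1 and 2 exceeded that of 3 and 4 by more than 1.5-fold in 3 members in leaf and 12 in root, or 5.88% and 23.5%, against 12.6% and 25.1% of 175 other probes that were bright in both tissues and off the ceiling. After scaling to a common mean it did so in 3 members in leaf and 4 in root. These are 5.88% and 7.84%, against 6.29% and 10.9% of the 175 other probes. In 25 members replicates 1 and 2 were the higher in both tissues, in 6 the lower in both, and in 20 the tissues went opposite ways. The 25 are 49.0%, against 64.0% of the 175 other probes. Over all 2029 other probes above 0 on every array and off the ceiling, the share was 40.5%. With a common mean the members' counts were 10, 20 and 21. The 10 are 19.6%, against 34.9% of the 175 and 25.6% of the 2029. Across the 51 members the log2 ratios of leaf and root had Pearson's r = 0.433 and Spearman's rho = 0.333, as a description only, since members share arrays and are not independent. PSB27 had the highest ratio in root, 2.43, and 2.26 in leaf. The spliceosome-related probe 4 had the highest in leaf, 3.17, and 1.54 in root. Whether this division plays a part in any tissue difference was not tested, but replicates 1 and 2 alone gave 57 members, 49 of them shared with the 53, and replicates 3 and 4 alone gave 47, with 43 shared (alternatives chosen after the data were seen).

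**Figure D5:**
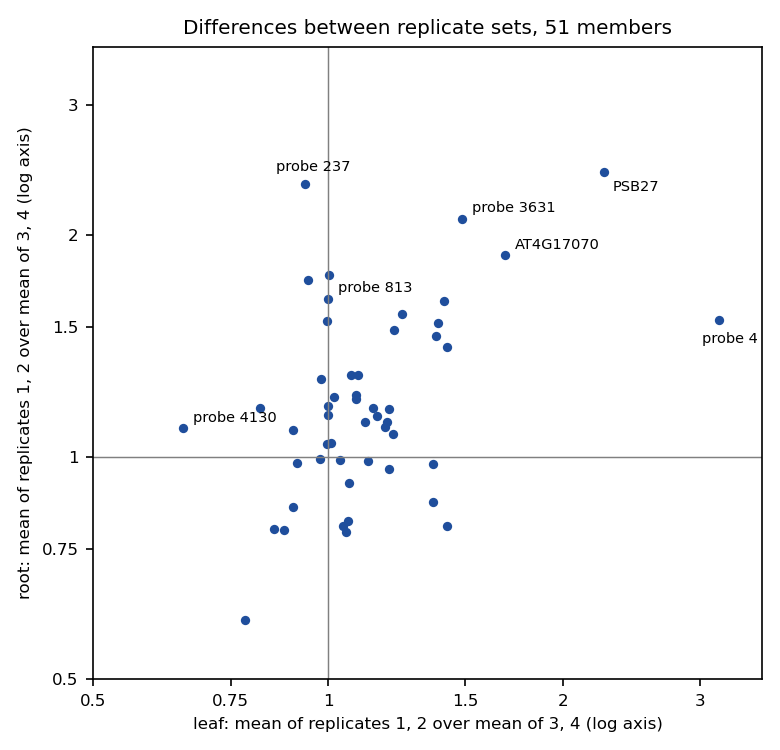
Mean of replicates 1 and 2 over the mean of replicates 3 and 4, in leaf (horizontal) and in root (vertical), both axes logarithmic, for the 51 members not at the ceiling. Lines mark a ratio of 1. PSB27 lies high in both tissues (2.26 and 2.43), probe 4 mainly in leaf (3.17), and the aspartyl protease probe 237 mainly in root (2.35, with 0.934 in leaf).

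At the limits of the rule the choice was narrow on one side. Just inside the ratio of 0.5 lay AT4G19900 at 0.505, the spliceosome-related probe at 0.510 and the leucine-rich repeat probe at 0.527. Just outside were AT2G15440 at 0.497, AILP1 at 0.461 and AT1G01730 at 0.426. Near the ratio of 2 there was a gap, from 1.68 for the valine breakdown probe to 2.20 for the probe of AT5G10980, AT4G40040 and AT4G40030. At the minimum of 1, the probe of AT1G73610 and AT1G23500, AT1G61990 and the probe of AT1G29540 and AT2G34330 lay just inside with lower means of 1.02, 1.02 and 1.03. AT3G15900 lay just outside at 0.965, as did the probe of AT1G21680 and AT1G21670 at 0.997 and that of AT5G02590, AT3G53560 and AT2G37400 at 0.946.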

How the data were processed

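Leaf and root RNA was measured on 8 arrays, grouped and numbered by their titles. The deposited table gives a spot intensity for each probe on each array; how the authors scanned, corrected and scaled these intensities is not given in the sources used here. The values are linear, with 20.0% to 22.8% of probes at 0 per leaf array and 12.8% to 15.1% per root array, and the number of arrays limits the precision. Genes came from the platform's annotation (1562 probes; 692 with 1 gene, 870 with several, 1877 with none), and all 95 genes of the members matched the RefSeq table for assembly TAIR10.1, used for names and gene neighbours only. No sequence or coordinate is printed.

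Means, SDs (n = 4), ratios and overlaps were computed on the deposited intensities, without normalisation, in Python 3.11.15 with pandas 2.3.3. A value within 0.1 of the highest counted as at the ceiling. Tissues overlapped unless every value of one lay above every value of the other. No test was run between tissues, as the rule used that contrast. The selection and overlap steps were tested on simulated data. Functional groups were assigned by locus from general knowledge of the genes.

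Named are all 21 members with 1 gene, both at the ceiling, the 15 brightest shared members and the shared members of a functional group, 40 in all; any other gene was picked with its values known. The members, lists and rules were chosen with earlier results of these data known. Alternatives were other scalings, averages and limits, probes with 1 gene, the ceiling, each array left out and ratios within replicate numbers. Figures were drawn with matplotlib 3.10.9.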

Additional observations from a re-analysis of the deposited data

Results flagged for a closer look

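With 4 arrays per tissue, a value was looked at again when its gap to the nearest other array exceeded 0.829 of the range of its group. Of 103 groups of 4 arrays, 3 met this, or 2.91%, where chance gives about 5%. The probe of AT1G78230, AT5G22320 and AT4G03260 read 2.86 on root replicate 2, above the other root arrays. AT1G61990 read 0.636 on the same array, below the others. The probe of AT1G24530, AT1G24130 and AT5G50120, WD40 repeat proteins, read 1.20 on root replicate 1, above the others. No cause was tested.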

How the results depend on the processing

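Leaving out each array in turn gave 50 to 55 members, median ratios of 0.910 to 0.973, 22 to 25 members without overlap of tissues, median coefficients of variation of 7.55% to 9.31% in leaf and 10.5% to 12.8% in root, and shares of summed intensity of 11.8% to 12.01% and 11.6% to 11.9%. With a minimum of 2 there were 17 members, a median ratio of 0.893, 7 without overlap, a leaf variation of 10.4% and shares of 10.01% in leaf and 10.02% in root. With ratios within 1.5-fold there were 41 members, of which 13 did not overlap. Their median ratio was 1.03, root variation was 11.2% and the shares were 11.02% and 11.1%. Probes with 1 gene gave 21 members, 9 without overlap, a leaf variation of 10.5% and shares of 3.48% and 3.85%. Without probes at the ceiling leaf variation was 9.89% and the shares were 5.70% and 5.95%. These settings count different probes from the main rule. Their overlap counts use the deposited values, where 51.3% of all probes with any signal did not overlap. Quantile normalisation gave a median ratio of 1.01, a root variation of 16.1% and a leaf share of 11.5%, scaling to array medians a ratio of 0.674 and a root variation of 14.9%, a common mean variations of 9.26% and 14.0%, and the median of 4 arrays a leaf share of 11.6%. Added later, replicates 1 and 2 alone left 41 and replicates 3 and 4 alone 44 of the 53 members without overlap, as fewer arrays overlap less often. Replicates 3 and 4 alone gave a ratio of 0.898. With arrays left out or with these pairs, the share of all probes without overlap was not computed. Those counts are therefore given without a reading. Scaling to array medians left 33 members without overlap (32 without the probe at the ceiling throughout), beside 47.1% of all probes. It moved the higher mean to leaf in 21 members, 6 of them with root above leaf as deposited. These included AT1G74470 (0.984), AT3G44020 (0.854) and the probe of AT4G22400, AT4G18320 and AT4G18310 (0.890); the cause was not tested.

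Ratios taken within replicate numbers, as a replicate block, gave 51 members and a median ratio of 0.940. Deviations of same-numbered leaf and root arrays correlated at 0.0793 to 0.116 over all probes, each above those with other numbers (-0.101 to 0.0451), a hint from the data and not from the design. Of the 31 members whose tissues overlapped, root was the higher within all 4 numbers in 8, PSB27 among them, and leaf in 9. Together these are 54.8%, against 22.4% of all 1611 overlapping probes. Those 1611 include dim probes and probes without signal on some arrays. A share over bright probes alone was not computed, so no reading is given. No other paired analysis was made, because no test was run.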
